A study of Homo sapiens with 24 samples.

Results

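Hepatocytes make most of the protein that circulates in blood plasma, and 38 genes of this kind were followed here through CRISPR targeting of KEAP1 and knockdown of TFEB and TFE3 in HepG2 cells. The genes were chosen by name, with earlier results of these data known. A gene was kept when the count table held a row for its Entrez gene ID. A row was found for 32 of the 38, and all 32 were among the 11152 genes tested. GC, SERPINF2, PLG, ITIH4, CFB and HRG were not analysed here.

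HepG2 is an established human liver cancer cell line that still expresses many hepatocyte genes. All cells carried the lentiCRISPRv2 construct, which delivers Cas9 with a guide RNA, and were selected with puromycin. The sgCtrl guide targets the AAVS1 safe-harbour site (sgAAVS168 in the labels), and sgKeap1-1 and sgKeap1-2 target KEAP1. Whether clones were isolated was not given in the sources used here. Every population was then transfected with a non-targeting siRNA (siNC) or with pooled siRNAs for both TFEB and TFE3 (sitfeb/sitfe3), and RNA was taken 72 hours later. This gave 6 groups of 4 libraries. The labels number the libraries 1 to 4 but do not say that they came from separate cultures, so p-values measure the spread between these libraries, which may be technical. In the sample descriptions the 6 libraries of a number also share a prefix, different for each number, whose meaning is not stated and which could mark a day or a batch. All 6 groups hold 1 library of each prefix, and results whose call changes when the number is added to the fit as a block are given below.

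Most plasma proteins enter the secretory pathway of the hepatocyte and leave the cell soon after synthesis. Their genes are driven by liver transcription factors such as HNF1, HNF4, FOXA and C/EBP proteins. In the acute-phase response, interleukin-6 acting through STAT3 and C/EBP proteins raises some of them, the positive acute-phase proteins such as fibrinogen and haptoglobin, and lowers others, the negative ones such as albumin and transferrin. KEAP1 holds the transcription factor NRF2 at a low level, and loss of KEAP1 releases NRF2 onto its targets. TFEB and TFE3 are transcription factors of lysosomal genes.

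The promoters of 5 of the genes are shown because they carry the same short HNF1 core, on either strand, and because they divide between genes that passed the test below and a gene that did not. ALB and AFP are neighbours with 0 coding genes between them, and FGA and FGB lie side by side in the fibrinogen cluster. These 4 genes fell with both KEAP1 guides, whereas F2 did not pass. Each run is the 150 bases before the RefSeq start of the gene on GRCh38.p14, 5′ to 3′ on the strand of the gene, and capitals mark the core.
ALB promoter, chr4:73404137-73404286, plus strand: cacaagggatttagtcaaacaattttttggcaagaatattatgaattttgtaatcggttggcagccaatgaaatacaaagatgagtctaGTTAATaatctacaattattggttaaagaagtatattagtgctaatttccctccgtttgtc
AFP promoter, chr4:73436071-73436220, plus strand: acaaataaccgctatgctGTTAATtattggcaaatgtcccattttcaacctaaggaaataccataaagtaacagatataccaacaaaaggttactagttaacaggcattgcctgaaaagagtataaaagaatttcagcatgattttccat
FGA promoter, chr4:154590743-154590892, minus strand: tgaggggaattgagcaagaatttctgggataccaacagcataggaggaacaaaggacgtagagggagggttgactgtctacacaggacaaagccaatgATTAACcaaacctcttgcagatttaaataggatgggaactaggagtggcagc
FGB promoter, chr4:154562830-154562979, plus strand: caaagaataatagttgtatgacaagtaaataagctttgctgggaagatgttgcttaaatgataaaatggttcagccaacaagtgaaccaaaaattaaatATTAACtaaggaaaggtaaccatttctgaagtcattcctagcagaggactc
F2 promoter, chr11:46719063-46719212, plus strand: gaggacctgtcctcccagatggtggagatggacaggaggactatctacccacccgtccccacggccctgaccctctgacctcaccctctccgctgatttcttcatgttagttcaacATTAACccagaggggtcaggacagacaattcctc

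The core, GTTAAT on either strand, began 61 bases before the start of ALB, 132 before that of AFP, 52 before that of FGA, 51 before that of FGB and 34 before that of F2. A RefSeq promoter of 300 bases, 250 before and 50 after the start, was matched for 23 of the 32 genes. The core was found in 6 of the 23 (26.1%), the 5 above and CFI, against 6.89% of all 27305 promoters and 3.64% of the 9123 promoters of tested genes. A C/EBP motif, TTNNGNAAT, was found in 7 (AHSG, ALB, CFI, FGB, HPX, ORM1 and RBP4; 30.4%, against 11.2% of all promoters and 5.91% of those of tested genes). The antioxidant response element core bound by NRF2, TGACNNNGC, was found in 5 (AGT, F10, FGG, ITIH1 and ITIH3; 21.7%, against 13.6% and 15.2%). The E-box of the TFEB family, CACGTG, was found in 2 (KNG1 and ORM1; 8.7%, against 7.43% and 10.3%). All 4 motifs were searched on both strands, and no match of a motif overlapped a match of another in these 23 promoters. A match is a description of the letters and not a binding site. Each gene was given a single RefSeq start, which need not be the start used in liver cells. Part of the ITIH1 window translates without a stop and may be coding sequence.

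Libraries held between 3527000 and 4600951 reads. The KEAP1 transcript was measured at 84.9 ± 6.69 CPM (read counts scaled to library size) in sgCtrl cells under siNC, at 53.8 ± 6.17 with sgKeap1-1 and at 77.4 ± 3.89 with sgKeap1-2 (SD, n = 4), and with sgKeap1-2 it did not pass the test (limma-voom adjusted p 0.448). Reads from the 3′ end of a transcript need not report an edit made by Cas9 further upstream, so the KEAP1 level is no check of the guides. NFE2L2, which encodes NRF2, was measured at 223 ± 33.1, 178 ± 28.8 and 186 ± 13.4 CPM in the same order (SD, n = 4). NQO1, an NRF2 target, went from 700 ± 36.1 CPM to 1590 ± 64.3 and 1800 ± 72.9 (SD, n = 4). In sgCtrl cells TFE3 was measured at 33.3 ± 3.33 CPM under siNC and at 11.9 ± 5.25 under sitfeb/sitfe3, and TFEB at 10.9 ± 4.57 and 2.64 ± 0.887 (SD, n = 4). The hepatocyte markers HNF4A, APOA1, APOB and FOXA2 had reads in every library. A pair of libraries stood apart from the rest over all genes, namely replicate 1 of sgKeap1-1 cells under siNC and replicate 1 of sgKeap1-2 cells under sitfeb/sitfe3, which were the lowest of their group for 36.4% and 34.5% of genes and the highest for 35.7% and 36.3%.

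A further pattern touched the plasma protein genes in particular libraries. Replicate 1 of sgCtrl cells was the lowest library of its group for 26 of the 32 genes under siNC (81.2%), against 30.4% of all genes tested. Under sitfeb/sitfe3 replicate 1 of sgCtrl cells was the lowest for 22 of the 32 (68.8%), against 28.5% of all genes. SERPINA1, the main inhibitor of neutrophil elastase, went the other way under sitfeb/sitfe3, at 121.3 CPM in replicate 1 and between 21.73 and 32.66 in the other 3 libraries. Both sgCtrl libraries numbered 1 carry the same description prefix as the 2 libraries that stood apart. Why these libraries differ was not tested, and the counts of called genes are given below with and without them.

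In order to see how much of the measured RNA these genes make up, their reads were summed. In sgCtrl cells under siNC the 32 genes held 2.97%, 4.13%, 4.13% and 4.5% of the reads in named genes, a mean of 3.93% ± 0.663 (SD, n = 4). With sgKeap1-1 the mean was 2.24% ± 0.172 and with sgKeap1-2 it was 2.29% ± 0.112, and every library of either guide was below every sgCtrl library. Under sitfeb/sitfe3 the means were 3.69% ± 0.53, 2.25% ± 0.103 and 2.01% ± 0.198 in the same order, again with no overlap between sgCtrl and either guide. ALB alone went from 1.07% ± 0.145 of reads to 0.441% ± 0.0409 and 0.464% ± 0.0391 under siNC. Without ALB the remaining 31 genes went from 2.86% ± 0.523 to 1.8% ± 0.132 and 1.82% ± 0.118 (SD, n = 4 throughout). QuantSeq reads come from the 3′ end of a transcript, so these shares do not scale with transcript length.

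**Figure D1:**
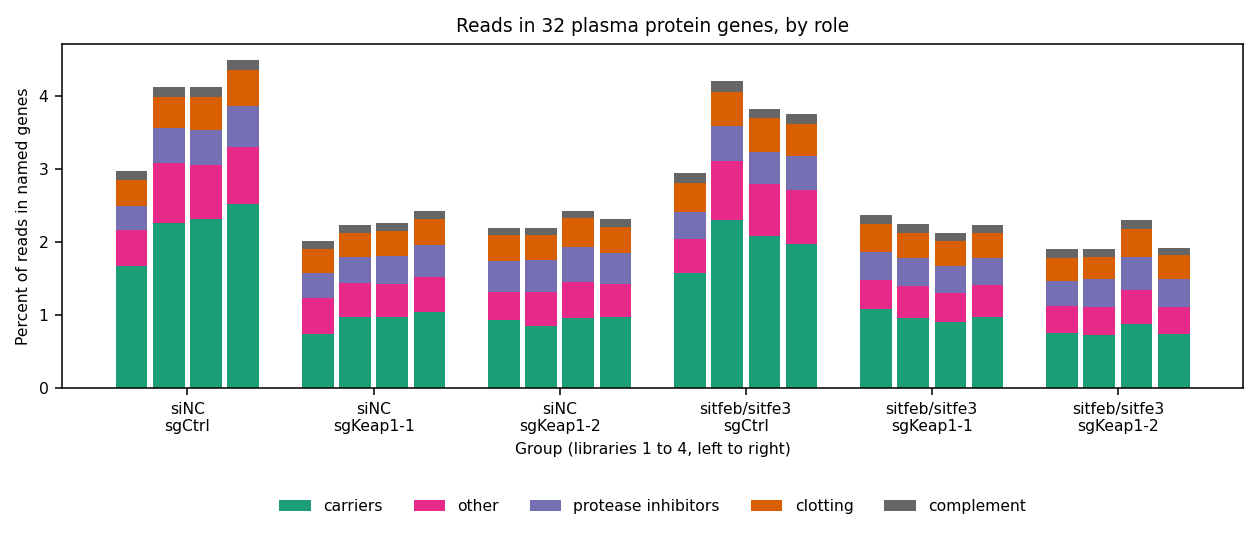
Percent of reads in named genes that fell in the 32 plasma protein genes, with 1 bar per library, 4 libraries in each of the 6 groups, and colours for the role of the protein. The 8 sgCtrl bars lie between 2.95% and 4.5%, and the 16 bars of the KEAP1 guides between 1.9% and 2.43%.

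The effect of the KEAP1 guides was then tested gene by gene. A gene was called when its limma-voom p-value, adjusted by the Benjamini-Hochberg method over all 11152 genes and given below as the FDR, was below 0.05. With sgKeap1-1 under siNC, 1 of the 32 genes rose, 11 fell and 20 did not pass, so that 37.5% were called against 10.9% of all genes tested (6.01% higher and 4.91% lower). With sgKeap1-2 under siNC, 2 rose, 12 fell and 18 did not pass, or 43.8% against 14.7% (7.58% higher and 7.14% lower). By role, 50% and 62.5% of carriers and 44.4% of the genes grouped as clotting (FGL1 included) with either guide were called. Of the 4 other genes 75% were called with either guide, and of the 8 protease inhibitors 12.5%. Of the 3 complement genes 0% and 33.3% were called. The median log2 fold change of the 32 genes was -0.38 and -0.25, beside -0.02 and -0.00 over all genes tested. The guides were compared with the same 4 sgCtrl libraries, so the lists are not independent of each other. The 10 genes ALB, AFP, TF, RBP4, FGA, FGB, FGG, AHSG, VTN and AGT fell with both guides and FGL1 rose with both. Without both sgCtrl libraries numbered 1, an alternative chosen after the data were seen, the counts were 17 and 16, and without the 2 libraries that stood apart they were 14 and 16. The share of all genes called in these fits is not given here, so the counts do not show whether all genes changed alike. In bulk RNA, fewer cells that make a protein and less RNA per cell cannot be told apart.

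The carriers, which bind hormones, metals, heme and lipids in plasma, held the changes of greatest size among well-expressed genes. Of 8 measured, 4 fell with both guides under siNC. ALB, which encodes albumin, the main carrier and osmotic protein of plasma, was measured at 8526, 11060, 11760 and 12200 CPM in sgCtrl cells under siNC. With sgKeap1-1 it was measured at 3961, 4549, 4487 and 4798 CPM and with sgKeap1-2 at 4974, 4228, 4524 and 4919 CPM. No library of either guide reached the lowest sgCtrl library. ALB was 2.43-fold lower with sgKeap1-1 (log2 fold change -1.28, SE 0.11, FDR 6.99e-09) and 2.32-fold lower with sgKeap1-2 (-1.21, SE 0.11, FDR 8.61e-09).

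AFP encodes alpha-fetoprotein, the fetal counterpart of albumin that many liver cancers keep. Its CPM in sgCtrl cells under siNC was 4830, 7944, 7451 and 9100, with replicate 1 the lowest. In sgKeap1-1 cells it was 1115, 2532, 2204 and 2860 CPM, and in sgKeap1-2 cells 1458, 1594, 1825 and 2253 CPM. All 8 libraries with a KEAP1 guide were below all 4 sgCtrl libraries. The log2 fold change was -1.80 with sgKeap1-1 (SE 0.24, FDR 6.49e-06) and -2.02 with sgKeap1-2 (SE 0.24, FDR 7.73e-07), which is 3.48-fold and 4.06-fold lower. Without the 2 libraries that stood apart, 1 of which is the AFP value of 1115, the change with sgKeap1-1 was -1.50 (FDR 1.83e-06). The number of AFP reads per ALB read was 0.666 ± 0.0819 in sgCtrl cells, 0.481 ± 0.14 with sgKeap1-1 and 0.383 ± 0.0687 with sgKeap1-2 (SD, n = 4), a ratio between groups that was not tested.

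TF, the iron carrier transferrin, was measured at 1892, 2558, 2563 and 2651 CPM in sgCtrl cells under siNC. It was measured at 1071, 1298, 1432 and 1405 CPM with sgKeap1-1 and at 1598, 1376, 1638 and 1406 CPM with sgKeap1-2, all below the lowest sgCtrl library. On the log2 scale TF fell by 0.89 in sgKeap1-1 cells (SE 0.13, FDR 1.53e-05) and by 0.67 in sgKeap1-2 cells (SE 0.13, FDR 3.99e-04). RBP4, which carries retinol from the liver, was measured at 656.6, 716.1, 728.4 and 775.7 CPM in sgCtrl cells. With sgKeap1-1 it was 624.5, 503.0, 543.5 and 490.3 CPM and with sgKeap1-2 it was 465.4, 457.8, 498.6 and 441.6 CPM. The groups did not overlap. The log2 fold changes were -0.42 (SE 0.10, FDR 0.0048) and -0.63 (SE 0.10, FDR 4.31e-05).

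TTR, the thyroxine carrier that travels with RBP4, did not pass with either guide. TTR was measured at 382.3, 850.7, 780.1 and 871.2 CPM in sgCtrl cells under siNC, at 674.1, 615.0, 797.4 and 688.0 CPM with sgKeap1-1 and at 538.5, 634.9, 834.4 and 581.7 CPM with sgKeap1-2. The 382.3 CPM belongs to replicate 1, and the groups overlapped. Its log2 fold change was 0.01 with sgKeap1-1 (95% interval -0.43 to 0.45) and -0.10 with sgKeap1-2 (95% interval -0.54 to 0.34), and the first interval includes the RBP4 change of -0.42. The difference between TTR and RBP4 was not tested. Under sitfeb/sitfe3 TTR was measured at 335.3, 642.7, 643.8 and 719.5 CPM in sgCtrl cells and between 405.2 and 593.4 CPM with the KEAP1 guides, so that replicate 1 was again the lowest and lay below all 8 guide libraries.

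Of the metal and heme binders CP, HPX and HP, CP passed the test, with sgKeap1-2. CP, the copper-carrying ferroxidase ceruloplasmin, was measured at 113.0, 178.8, 149.6 and 138.4 CPM in sgCtrl cells under siNC and at 211.8, 250.8, 277.0 and 200.2 CPM with sgKeap1-2, with no overlap. In sgKeap1-2 cells CP rose by 0.70 on the log2 scale (SE 0.20, FDR 0.0162). With sgKeap1-1 the CP libraries were 148.7, 243.2, 214.7 and 251.7 CPM, and the change of 0.56 did not pass (FDR 0.0787). HPX, the heme scavenger hemopexin, had changes of 0.46 and 0.55 that did not pass (FDR 0.217 and 0.0952). HP, the hemoglobin binder haptoglobin, had changes of 0.09 and 0.04 (95% intervals -0.37 to 0.55 and -0.42 to 0.50).

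**Figure D2:**
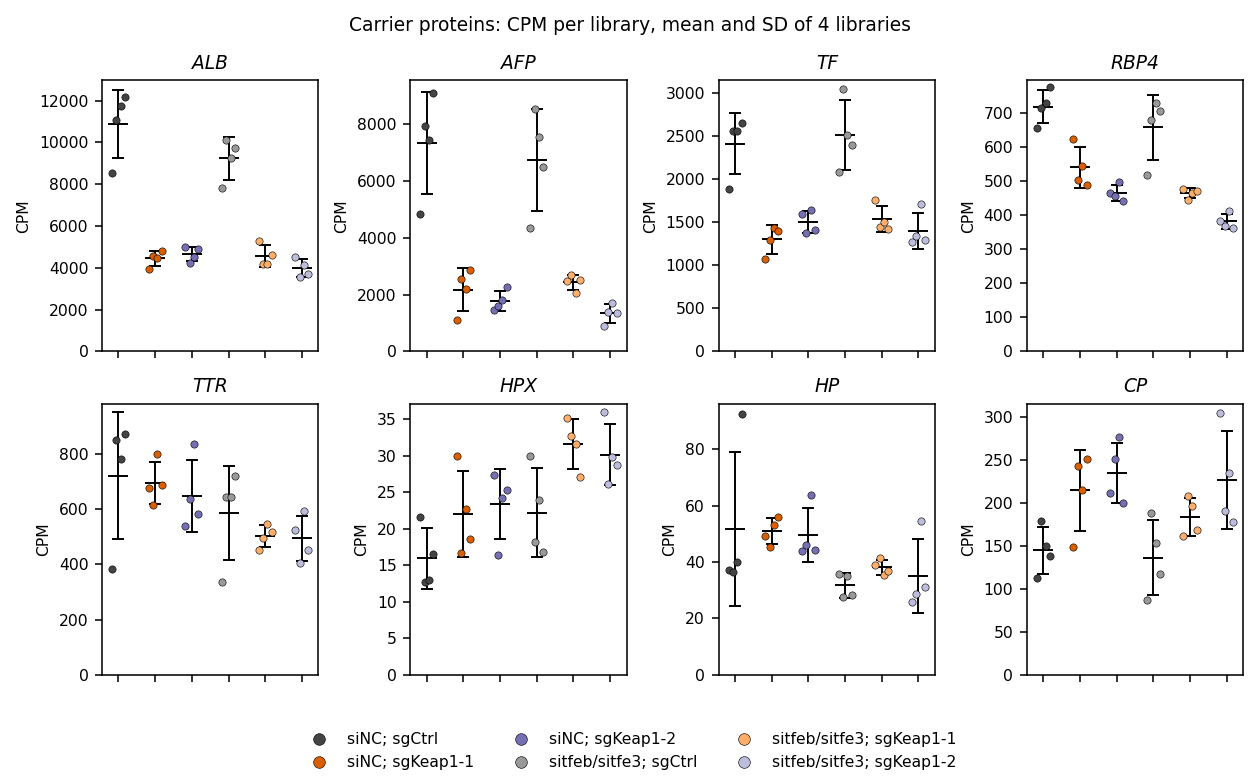
CPM of 8 carrier genes in each library (points), with the mean and SD of the 4 libraries (bars), for the 6 groups in the order of the legend and with axes that start at 0. In ALB, AFP, TF and RBP4 the KEAP1 guide libraries lie below the sgCtrl libraries under the same siRNA, while TTR, HPX, HP and CP overlap in at least 1 comparison.

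Of the 9 genes grouped as clotting, the 3 fibrinogen chains fell with both guides under siNC, and F2, F5, F10, F12 and KNG1 did not pass. FGL1, placed in this group for its likeness to fibrinogen and not as a clotting factor, rose with both. FGA, FGB and FGG encode the chains that assemble into fibrinogen, the precursor of the fibrin clot. FGA was measured at 838.9, 1050, 1096 and 1063 CPM in sgCtrl cells. With sgKeap1-1 it was 997.7, 651.1, 795.1 and 686.8 CPM, of which the highest is a library that stood apart and lies inside the sgCtrl range. With sgKeap1-2 it was 707.1, 675.8, 755.5 and 737.3 CPM, below every sgCtrl library. The log2 fold changes of FGA were -0.38 (SE 0.13, FDR 0.048) and -0.49 (SE 0.13, FDR 0.00849), and the call with sgKeap1-1 was lost in edgeR.

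FGB was measured at 875.7, 1202, 1045 and 1262 CPM in sgCtrl cells, at 832.4, 790.1, 760.7 and 824.2 CPM with sgKeap1-1 and at 780.8, 806.9, 884.5 and 800.6 CPM with sgKeap1-2. Only sgKeap1-2 replicate 3 was above the lowest sgCtrl library, which was replicate 1. The changes were -0.44 (SE 0.11, FDR 0.00908) and -0.41 (SE 0.11, FDR 0.0118). FGG was measured at 1065, 1035, 1337 and 1549 CPM in sgCtrl cells, at 443.8, 810.6, 786.0 and 958.8 CPM with sgKeap1-1 and at 926.5, 693.6, 894.0 and 890.3 CPM with sgKeap1-2. The groups did not overlap, and the changes were -0.77 (SE 0.18, FDR 0.00545) and -0.54 (SE 0.18, FDR 0.044). The FGG value of 443.8 CPM belongs to a library that stood apart, and without it and the other such library the change with sgKeap1-1 was -0.53 (FDR 0.00979). All 3 chains thus fell, by between 0.38 and 0.77 on the log2 scale.

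FGL1, a secreted fibrinogen-like protein of hepatocytes, moved opposite to the fibrinogen chains. It was measured at 138.9, 171.5, 183.5 and 167.7 CPM in sgCtrl cells under siNC. With sgKeap1-1 it was 265.1, 292.6, 331.8 and 330.8 CPM and with sgKeap1-2 it was 332.9, 350.4, 387.5 and 312.5 CPM. Every library with a KEAP1 guide was above every sgCtrl library. FGL1 was 1.85-fold higher with sgKeap1-1 (log2 fold change 0.89, SE 0.12, FDR 7.13e-06) and 2.1-fold higher with sgKeap1-2 (1.07, SE 0.12, FDR 2.64e-07).

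Of the other clotting genes, F2 and F10 had changes near 0, and F5, F12 and KNG1 had negative changes that did not pass. F2, which encodes prothrombin, had log2 fold changes of -0.02 (95% interval -0.32 to 0.27) and 0.08 (95% interval -0.22 to 0.37). For F10, the factor that activates prothrombin, they were -0.03 and 0.00, with 95% intervals of -0.36 to 0.31 and -0.33 to 0.33. F5, the cofactor of factor X, had changes of -0.38 (FDR 0.065) and -0.15 (FDR 0.522). F12 and KNG1, of the contact system, were low, with 11 to 35 and 4 to 66 reads per library. Their changes were -0.83 and -0.48 for F12 and -0.93 and -0.99 for KNG1, and the lowest FDR among these 4 values was 0.0771.

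**Figure D3:**
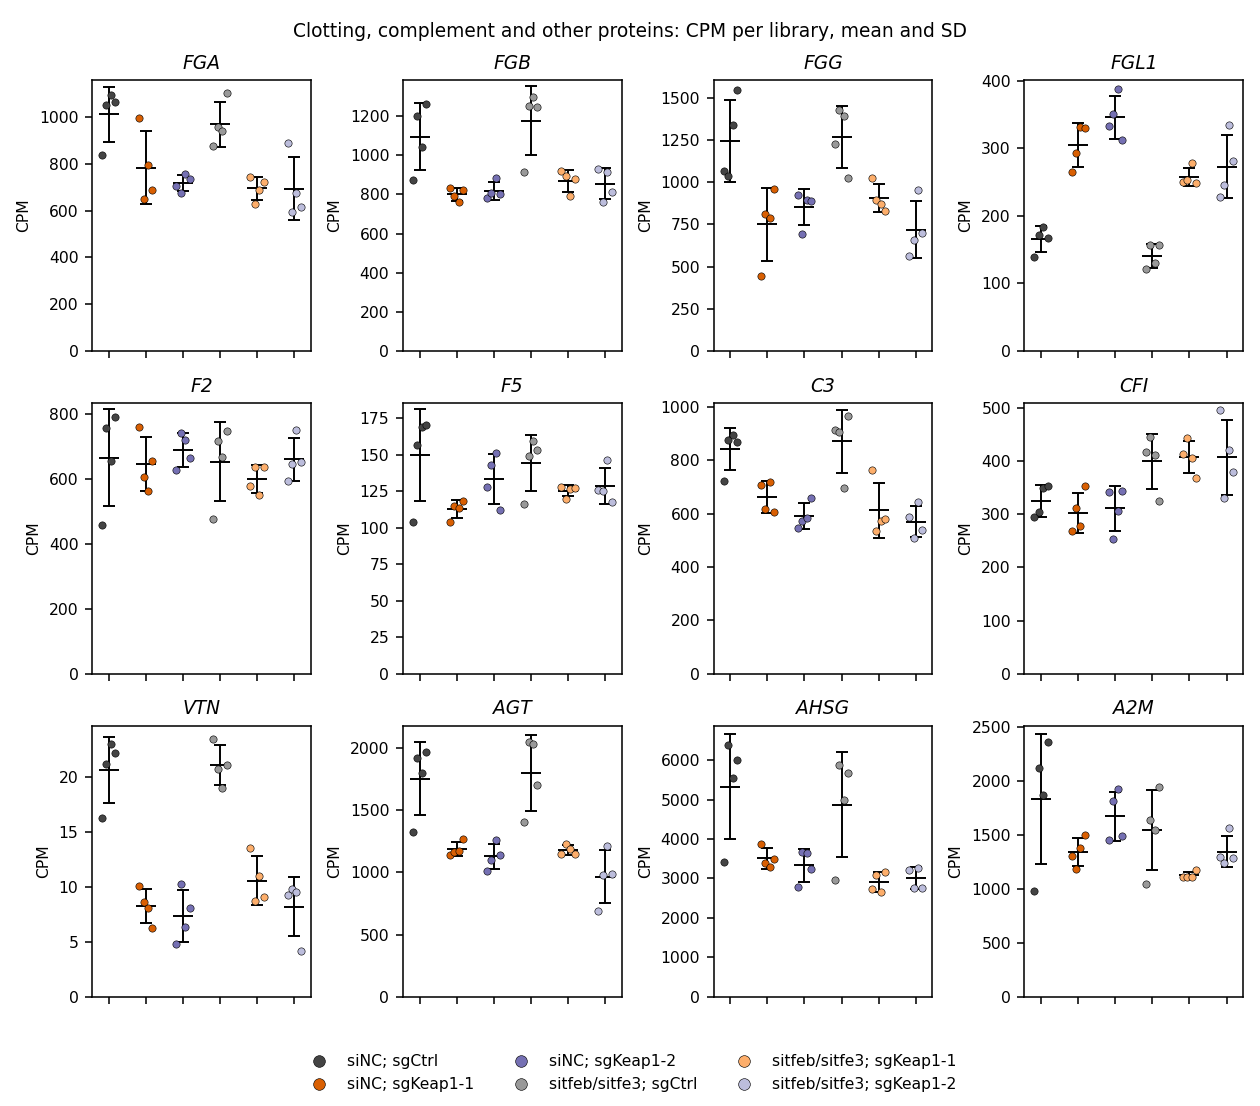
CPM of 12 clotting, complement, protease inhibitor and other genes in each library (points), with the mean and SD of the 4 libraries (bars), for the 6 groups in the order of the legend and with axes that start at 0. FGL1 is above sgCtrl in every KEAP1 guide library and VTN below it, and F2 and CFI overlap between sgCtrl and the KEAP1 guides under either siRNA.

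Of the 8 protease inhibitors, 1 fell with each guide under siNC and 7 did not pass, which is 12.5% called, against 10.9% and 14.7% of all genes. SERPINC1, which encodes antithrombin, was measured at 90.67, 112.2, 114.8 and 132.3 CPM in sgCtrl cells and between 74.6 and 91.5 CPM with sgKeap1-1, with an overlap at sgCtrl replicate 1. Its change was -0.42 (SE 0.13, FDR 0.0335) with sgKeap1-1 and -0.13 (SE 0.13, FDR 0.593) with sgKeap1-2. The difference between the guides was 0.30 (SE 0.13, unadjusted p 0.0314, FDR 0.815) and did not pass, and without the 2 libraries that stood apart the change with sgKeap1-1, at -0.36 (FDR 0.0701), did not pass either. ITIH3, a heavy chain of the inter-alpha-trypsin inhibitors that bind hyaluronan, was measured at 27.18, 75.05, 60.87 and 84.67 CPM in sgCtrl cells and between 25.98 and 35.26 CPM with sgKeap1-2. It fell by 0.94 with sgKeap1-2 (SE 0.28, FDR 0.0198), and the change of -0.50 with sgKeap1-1 did not pass (FDR 0.254). The sgCtrl value of 27.18 is replicate 1 and lies within the range of sgKeap1-2.

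Other inhibitors gave no call under siNC. AMBP, the precursor of alpha-1-microglobulin and bikunin, had changes of -0.10 (95% interval -0.35 to 0.14) and -0.02 (95% interval -0.26 to 0.23). ITIH2, whose protein is joined to bikunin, had changes of -0.27 and 0.01 (95% intervals -0.64 to 0.10 and -0.36 to 0.38). A2M, a broad protease trap, was measured at 975.6, 2120, 1870 and 2355 CPM in sgCtrl cells, between 1184 and 1498 CPM with sgKeap1-1 and between 1455 and 1920 CPM with sgKeap1-2. The sgCtrl libraries of A2M surrounded those of both guides, with replicate 1 the lowest, and the changes were -0.38 (FDR 0.228) and -0.07 (FDR 0.873). SERPINA1 and SERPING1, the inhibitor of the complement C1 enzymes, had changes between -0.14 and 0.18. ITIH1 was near the floor, with 0 to 32 reads per library, and its changes of -2.19 (FDR 0.0504) and -1.41 (FDR 0.13) did not pass.

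Complement was represented by 3 genes. C3, the central component of the cascade, was measured at 723.4, 874.9, 894.0 and 868.4 CPM in sgCtrl cells under siNC, at 708.7, 616.7, 717.7 and 605.1 CPM with sgKeap1-1 and at 547.0, 574.1, 584.7 and 660.2 CPM with sgKeap1-2. The groups did not overlap for either guide, though sgKeap1-1 came close to sgCtrl replicate 1. C3 fell by 0.50 with sgKeap1-2 (SE 0.12, FDR 0.00331), and the change of -0.34 with sgKeap1-1 did not pass (FDR 0.0558). C5, from which the anaphylatoxin C5a is cut, and CFI, the protease that inactivates C3b, did not pass, with changes between -0.18 and -0.07.

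The other 4 genes include the cell-adhesion protein vitronectin. VTN was measured at 16.26, 21.19, 22.97 and 22.17 CPM in sgCtrl cells under siNC, at 10.08, 8.615, 8.044 and 6.268 CPM with sgKeap1-1 and at 4.8, 10.23, 6.326 and 8.054 CPM with sgKeap1-2. No library of a KEAP1 guide reached the lowest sgCtrl library, and VTN was 2.5-fold lower with sgKeap1-1 (log2 fold change -1.32, SE 0.23, FDR 2.73e-04) and 2.84-fold lower with sgKeap1-2 (-1.51, SE 0.24, FDR 5.83e-05). VTN rested on 17 to 94 reads per library. AGT, the precursor of the angiotensins, was measured at 1327, 1922, 1801 and 1966 CPM in sgCtrl cells, at 1139, 1167, 1173 and 1270 CPM with sgKeap1-1 and at 1014, 1103, 1259 and 1140 CPM with sgKeap1-2. The AGT groups did not overlap, and it fell by 0.55 (SE 0.14, FDR 0.00902) and by 0.62 (SE 0.14, FDR 0.00245) on the log2 scale.

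AHSG encodes fetuin-A, a mineral-binding glycoprotein. It was measured at 3404, 6389, 5534 and 5990 CPM in sgCtrl cells, at 3868, 3392, 3277 and 3488 CPM with sgKeap1-1 and at 2777, 3671, 3633 and 3246 CPM with sgKeap1-2. The sgCtrl value of 3404 is replicate 1 and lies among the values of the KEAP1 guides, while the other 3 sgCtrl libraries lie above them all. The changes were -0.57 (SE 0.17, FDR 0.032) and -0.65 (SE 0.17, FDR 0.0112), and without both sgCtrl libraries numbered 1 they were -0.77 (FDR 1.37e-05) and -0.85 (FDR 2.10e-06). ORM1, an acute-phase glycoprotein whose paralog ORM2 is near-identical and could share its reads, had changes of -0.57 and -0.35 that did not pass (FDR 0.25 and 0.497). HP likewise has a close paralog, HPR.

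**Figure D4:**
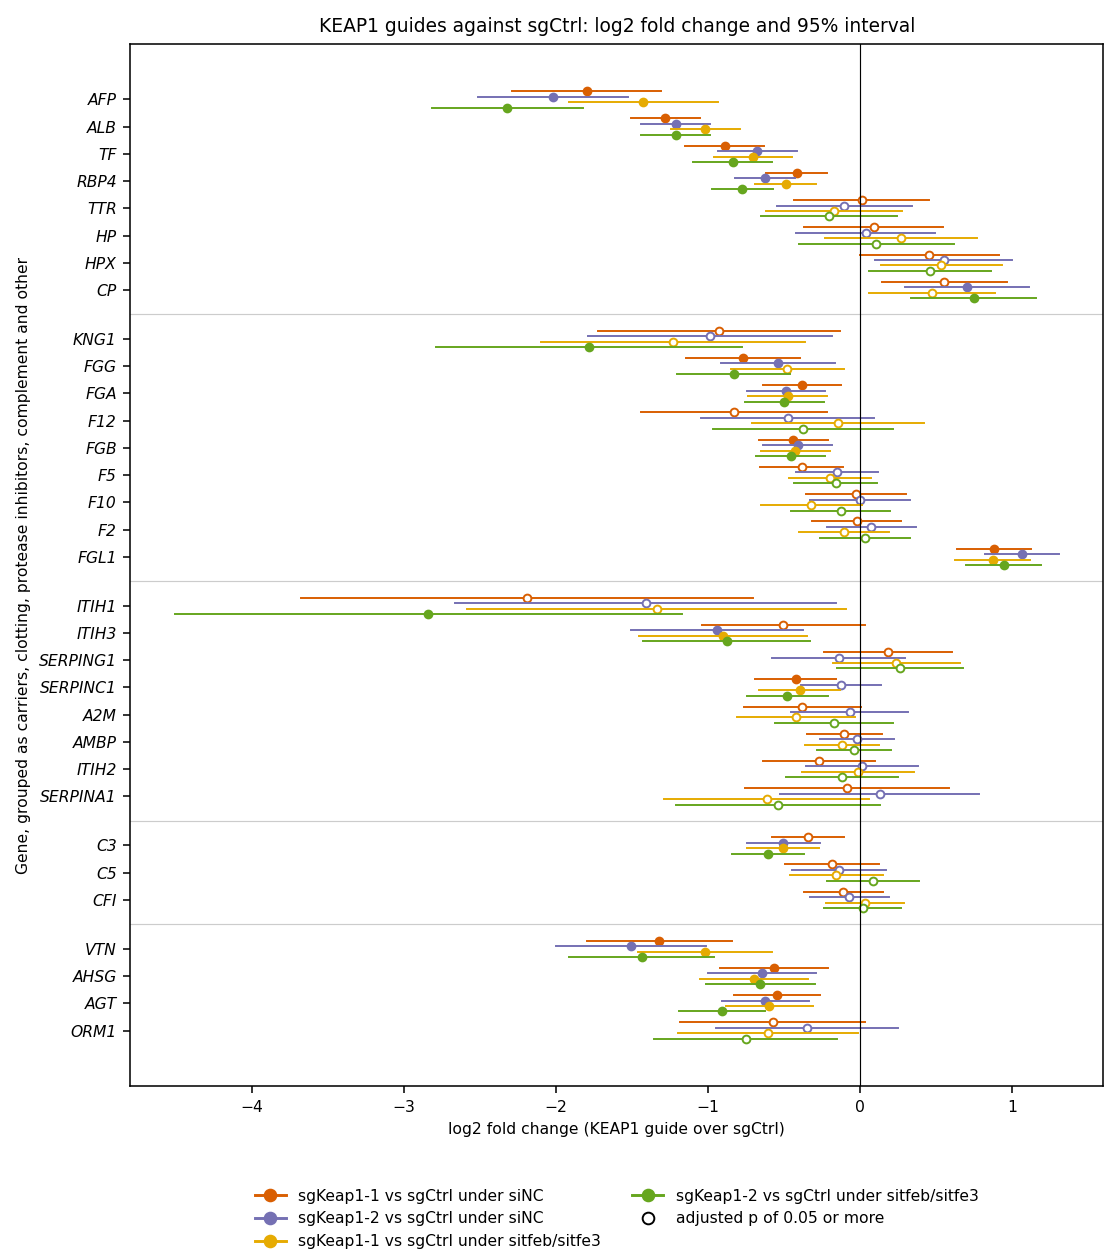
Log2 fold change of each of the 32 genes (points) with its 95% interval (lines) for each KEAP1 guide against sgCtrl under either siRNA, with filled points where the FDR was below 0.05 and genes grouped by role. AFP, ALB, TF, RBP4 and VTN lie to the left of 0 in all 4 comparisons, FGL1 lies to the right in all 4, and F2, AMBP and CFI lie near 0.

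Some of the calls under siNC were close to the threshold and were lost when 1 library was left out. With sgKeap1-1, AHSG and FGA did not pass when any of replicates 2, 3 and 4 of sgCtrl or of sgKeap1-1 cells was left out, with an FDR of 0.0679 to 0.128 for AHSG and 0.0781 to 0.18 for FGA. SERPINC1 did not pass without replicate 2, 3 or 4 of sgCtrl cells or replicate 1, 2 or 4 of sgKeap1-1 cells (FDR 0.0735 to 0.15), and FGB did not pass without sgCtrl replicate 4 (FDR 0.0547). With sgKeap1-2, FGG did not pass without sgCtrl replicate 3 or 4 or any single sgKeap1-2 library (FDR 0.0538 to 0.17), and ITIH3 did not pass without replicate 2 or 4 of sgCtrl or replicate 1 or 4 of sgKeap1-2 cells (FDR 0.0504 to 0.0891). CP did not pass without sgCtrl replicate 1 or sgKeap1-2 replicate 3 (FDR 0.0595 to 0.0728), FGB without sgCtrl replicate 2 or 4 (FDR 0.0505 to 0.0609) and AHSG without sgCtrl replicate 2 (FDR 0.0534). The calls of ALB, AFP, TF, RBP4, VTN, AGT and FGL1 with both guides and of C3 with sgKeap1-2 were kept in each of these fits.

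The genes were also grouped by their class in the acute-phase response. Of 12 positive acute-phase genes, 1 rose and 4 fell with sgKeap1-1 under siNC, and 2 rose and 5 fell with sgKeap1-2, or 41.7% and 58.3% against 10.9% and 14.7% of all genes. The genes that fell with both guides were FGA, FGB, FGG and AGT. Of 5 negative acute-phase genes, 0 rose and 4 fell with each guide (80%), namely ALB, TF, RBP4 and AHSG, while TTR did not pass. Both classes thus held genes that fell, and the positive class also held FGL1 and, with sgKeap1-2, CP, which rose.

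The groups were also compared by whether their libraries overlapped. With sgKeap1-1 under siNC, 1 gene was higher and 11 lower in all 4 libraries than in every sgCtrl library, where 14.1% of all genes did not overlap. With sgKeap1-2 it was 2 higher and 10 lower, where 20.3% of all genes did not overlap. The 20 genes with a mean of at least 100 CPM had a median SE of 0.14 with either guide, and the 12 below 100 CPM had a median SE of 0.25 and 0.26, with ranges that overlapped. Of the 20, 1 rose and 9 fell with sgKeap1-1, and 2 rose and 10 fell with sgKeap1-2. Of the 12, 0 rose and 2 fell with each guide. The shares of all genes called were not matched for level.

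The KEAP1 comparison was repeated in cells that received sitfeb/sitfe3, with libraries of their own. With sgKeap1-1, 1 of the 32 genes rose and 12 fell (40.6%, against 10.5% of all genes, 5.69% higher and 4.81% lower). With sgKeap1-2, 2 rose and 15 fell (53.1%, against 20.2% of all genes, 10.6% higher and 9.59% lower). Not overlapping were 1 higher and 9 lower with sgKeap1-1 (17.2% of all genes) and 1 higher and 10 lower with sgKeap1-2 (19.8% of all genes). The median log2 fold changes of the 32 genes were -0.42 and -0.47, beside 0.00 and 0.01 over all genes tested. Without both sgCtrl libraries numbered 1 the counts were 15 and 21, and without the 2 libraries that stood apart they were 16 and 17. The share of all genes called in these fits is again not given.

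Of the 12 genes called with sgKeap1-1 under siNC, 11 were called in the same direction under sitfeb/sitfe3, which is 91.7% of the first list and 84.6% of the second. Over all genes tested these shares were 64.9% and 67.5%. For sgKeap1-2 all 14 genes were called again, 100% of the first list and 82.4% of the second, where all genes gave 76.1% and 55.4%. No gene was called in opposite directions. These comparisons share no library, but they share the transduced populations.

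ALB under sitfeb/sitfe3 was measured at 7802, 10130, 9267 and 9752 CPM in sgCtrl cells, at 5308, 4169, 4187 and 4592 CPM with sgKeap1-1 and at 4538, 3578, 4124 and 3703 CPM with sgKeap1-2. The groups were again fully apart, with log2 fold changes of -1.02 (SE 0.11, FDR 3.71e-07) and -1.21 (SE 0.11, FDR 8.60e-09). AFP was measured at 4334, 8529, 7543 and 6500 CPM in sgCtrl cells, at 2492, 2675, 2063 and 2530 CPM with sgKeap1-1 and at 903.2, 1389, 1719 and 1337 CPM with sgKeap1-2. It fell by 1.43 with sgKeap1-1 (SE 0.24, FDR 1.49e-04) and by 2.32 with sgKeap1-2 (SE 0.24, FDR 7.67e-08), and all 4 sgKeap1-2 libraries were below all 4 sgKeap1-1 libraries. That difference between the guides was -0.90 (SE 0.25, unadjusted p 0.00121) and did not pass after adjustment (FDR 0.422), but it passed when the library number was added as a fixed block (-0.89, FDR 0.0214). With the number as a random block by duplicateCorrelation it did not pass.

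FGL1 was again higher, at 121.6, 156.2, 129.5 and 156.6 CPM in sgCtrl cells, between 248.1 and 277.7 CPM with sgKeap1-1 and between 228.3 and 333.9 CPM with sgKeap1-2. Its changes were 0.87 (SE 0.12, FDR 1.17e-05) and 0.95 (SE 0.12, FDR 1.76e-06). VTN was measured between 19.0 and 23.42 CPM in sgCtrl cells, between 8.7 and 13.53 CPM with sgKeap1-1 and between 4.169 and 9.841 CPM with sgKeap1-2, and fell by 1.02 (SE 0.21, FDR 0.00188) and by 1.44 (SE 0.23, FDR 4.95e-05). CP rose with sgKeap1-2 (0.75, SE 0.20, FDR 0.00796) and not past the threshold with sgKeap1-1 (0.48, FDR 0.151). C3 and ITIH3 fell with both guides in these cells. KNG1 and ITIH1 fell with sgKeap1-2, by 1.78 (SE 0.49, FDR 0.00962) and 2.84 (SE 0.81, FDR 0.0131), on few reads, and each call was lost when 1 sgKeap1-2 library was left out, replicate 2 for KNG1 (-1.26, FDR 0.0551) and replicate 4 for ITIH1 (-2.13, FDR 0.0624). FGG did not pass with sgKeap1-1 (-0.48, FDR 0.0983). In these cells SERPINC1 with sgKeap1-1 did not pass without replicate 2, 3 or 4 of sgCtrl or any single sgKeap1-1 library (FDR 0.0716 to 0.151), and ITIH3 did not pass without sgCtrl replicate 2 or 4 or any single sgKeap1-1 library (FDR 0.0525 to 0.122). FGA with sgKeap1-1 was lost without sgCtrl replicate 4 or sgKeap1-1 replicate 2 (FDR 0.0542 to 0.0604) and FGB without replicate 3 of either group (FDR 0.052 to 0.0566). With sgKeap1-2, ITIH3 was lost without sgCtrl replicate 2 or 4 (FDR 0.0698 to 0.0837) and CP without sgCtrl replicate 1 (FDR 0.0501).

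With the library number as a fixed block the KEAP1 counts were 15 and 16 under siNC and 14 and 19 under sitfeb/sitfe3, against 12, 14, 13 and 17 without it. Under siNC the block added CP (FDR 0.0347), F5 (FDR 0.0258) and ITIH1 (FDR 0.0357) with sgKeap1-1, and HPX (FDR 0.0142) and KNG1 (FDR 0.0428) with sgKeap1-2. Under sitfeb/sitfe3 it added HPX with both guides (FDR 0.0154 and 0.0233) and ORM1 with sgKeap1-2 (FDR 0.0492). With the block fitted by duplicateCorrelation instead, the counts were 15, 14, 15 and 17, and C3 (FDR 0.0459), F5 (FDR 0.0445) and ITIH1 (FDR 0.041) were added with sgKeap1-1 under siNC, and HPX (FDR 0.0472) and KNG1 (FDR 0.0463) with sgKeap1-1 under sitfeb/sitfe3. No gene called without the block was lost in these comparisons. The share of all genes called with the block is not given here, so the added genes are not set against it.

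Whether TFEB and TFE3 knockdown altered the KEAP1 effect was tested as an interaction, the KEAP1 effect under sitfeb/sitfe3 minus that under siNC. By limma-voom 0 of the 32 genes passed for sgKeap1-1, for sgKeap1-2 or for the average of both guides, and 0 of all genes passed (0%). At an unadjusted p under 0.05 the count of the 32 was also 0 for each of the 3 contrasts, against 304, 454 and 349 of all 11152 genes. By edgeR and DESeq2, 0 of the 32 were called. For ALB the interaction was 0.26 with sgKeap1-1 (95% interval -0.06 to 0.58) and 0.00 with sgKeap1-2. For AFP it was 0.37 (95% interval -0.32 to 1.07) with sgKeap1-1. These intervals include differences as large as the fibrinogen changes.

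The guides were also compared with each other. Under siNC 0 of the 32 genes passed (0% of all genes). By limma-voom 2 of the 32, SERPINC1 and RBP4, had an unadjusted p under 0.05, against 598 of all 11152 genes. Under sitfeb/sitfe3 0 passed without the block, against 0.00897% of all genes. An unadjusted p under 0.05 was reached by 3 of the 32, against 856 of all 11152 genes. These 3 were AFP, RBP4 and AGT, each lower with sgKeap1-2. RBP4 differed by -0.21 under siNC and by -0.29 under sitfeb/sitfe3 (95% interval -0.49 to -0.08, FDR 0.533).

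The effect of sitfeb/sitfe3 itself was tested in each guide background and averaged over the guides. In each guide background 0 of the 32 genes passed by limma-voom, edgeR and DESeq2, where 0.0179% of all genes passed in sgCtrl cells, 0.0897% in sgKeap1-1 cells and 0.359% in sgKeap1-2 cells. The counts of the 32 at an unadjusted limma-voom p under 0.05 were 4, 5 and 5, against 516, 901 and 1169 of all 11152 genes. Averaged over the 3 guides, 2 of the 32 genes rose and 3 fell, 5 in all (15.6%), against 2.33% of all genes (0.942% higher and 1.39% lower).

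CFI had the lowest p-value of the 32 genes. It was measured at 294.9, 304.4, 349.7 and 353.1 CPM under siNC and at 416.6, 445.5, 411.4 and 325.3 CPM under sitfeb/sitfe3 in sgCtrl cells. With sgKeap1-1 it was 269.1, 311.3, 277.5 and 352.7 CPM under siNC and 412.4, 443.9, 406.1 and 368.8 CPM under sitfeb/sitfe3. With sgKeap1-2 it was 341.1, 253.5, 305.7 and 343.8 CPM and then 496.6, 330.6, 421.6 and 378.5 CPM. The groups were apart in sgKeap1-1 cells and overlapped in the other 2 backgrounds. The averaged change was 0.37 (SE 0.07, FDR 0.00403), and it passed in every alternative fit, with changes of 0.31 to 0.40.

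HPX rose by 0.46 (SE 0.12, FDR 0.0335), with means of 15.93, 21.96 and 23.32 CPM under siNC and 22.2, 31.58 and 30.11 CPM under sitfeb/sitfe3 in sgCtrl, sgKeap1-1 and sgKeap1-2 cells. HP fell by 0.52 (SE 0.13, FDR 0.0354). In sgCtrl cells HP was measured at 37.34, 36.4, 40.19 and 92.69 CPM under siNC, so replicate 4 stood far above the rest, and between 27.77 and 35.79 CPM under sitfeb/sitfe3. Without sgCtrl replicate 4 under siNC the HP change was -0.41 (FDR 0.0361). FGL1, which rose with both KEAP1 guides, fell by 0.27 (SE 0.07, FDR 0.0258), and RBP4 fell by 0.21 (SE 0.06, FDR 0.043). With the library number as a fixed block TTR also passed (-0.38, FDR 0.0317, against 0.122 without the block).

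Of these 5 calls only that of CFI passed in all 24 fits that left out 1 library. HP was lost in 11 (FDR 0.0523 to 0.0793), namely without replicates 3 and 4 of sgKeap1-1 and 3 of sgKeap1-2 cells under siNC, and without replicates 2 and 4 of sgCtrl, 2, 3 and 4 of sgKeap1-1 and 1, 2 and 4 of sgKeap1-2 cells under sitfeb/sitfe3. HPX was lost in 11 (FDR 0.0515 to 0.074), namely without replicates 2 and 3 of sgCtrl, 2 and 4 of sgKeap1-1 and 2 and 3 of sgKeap1-2 cells under siNC, and without replicates 1 and 3 of sgCtrl and 1, 2 and 3 of sgKeap1-1 cells under sitfeb/sitfe3. FGL1 was lost in 8 (FDR 0.0508 to 0.0599), namely without replicates 2 and 3 of sgCtrl and 3 of either KEAP1 guide under siNC, and without replicates 1 and 3 of sgCtrl and 2 of either KEAP1 guide under sitfeb/sitfe3. RBP4 was lost in 16 (FDR 0.0543 to 0.0841), which under siNC left the call standing only without sgCtrl replicate 1 or replicates 2 and 4 of sgKeap1-1 cells, and under sitfeb/sitfe3 only without replicates 3 and 4 of sgCtrl, 1 of sgKeap1-1 and 1 and 3 of sgKeap1-2 cells.

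Leaving out 1 library at a time gave between 1 and 7 calls in all. The share of all genes called in these fits is not given here. The count was 1 without sgKeap1-1 replicate 2 under sitfeb/sitfe3 or sgKeap1-2 replicate 3 under siNC. It was 2 without replicate 2 or 3 of sgCtrl cells or replicate 3 of sgKeap1-1 cells under siNC, and without sgCtrl replicate 1, sgKeap1-1 replicate 3 or sgKeap1-2 replicate 2 under sitfeb/sitfe3. It was 3 without sgKeap1-1 replicate 4 or sgKeap1-2 replicate 2 under siNC, and without replicate 2 or 3 of sgCtrl cells or replicate 4 of either KEAP1 guide under sitfeb/sitfe3.

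**Figure D5:**
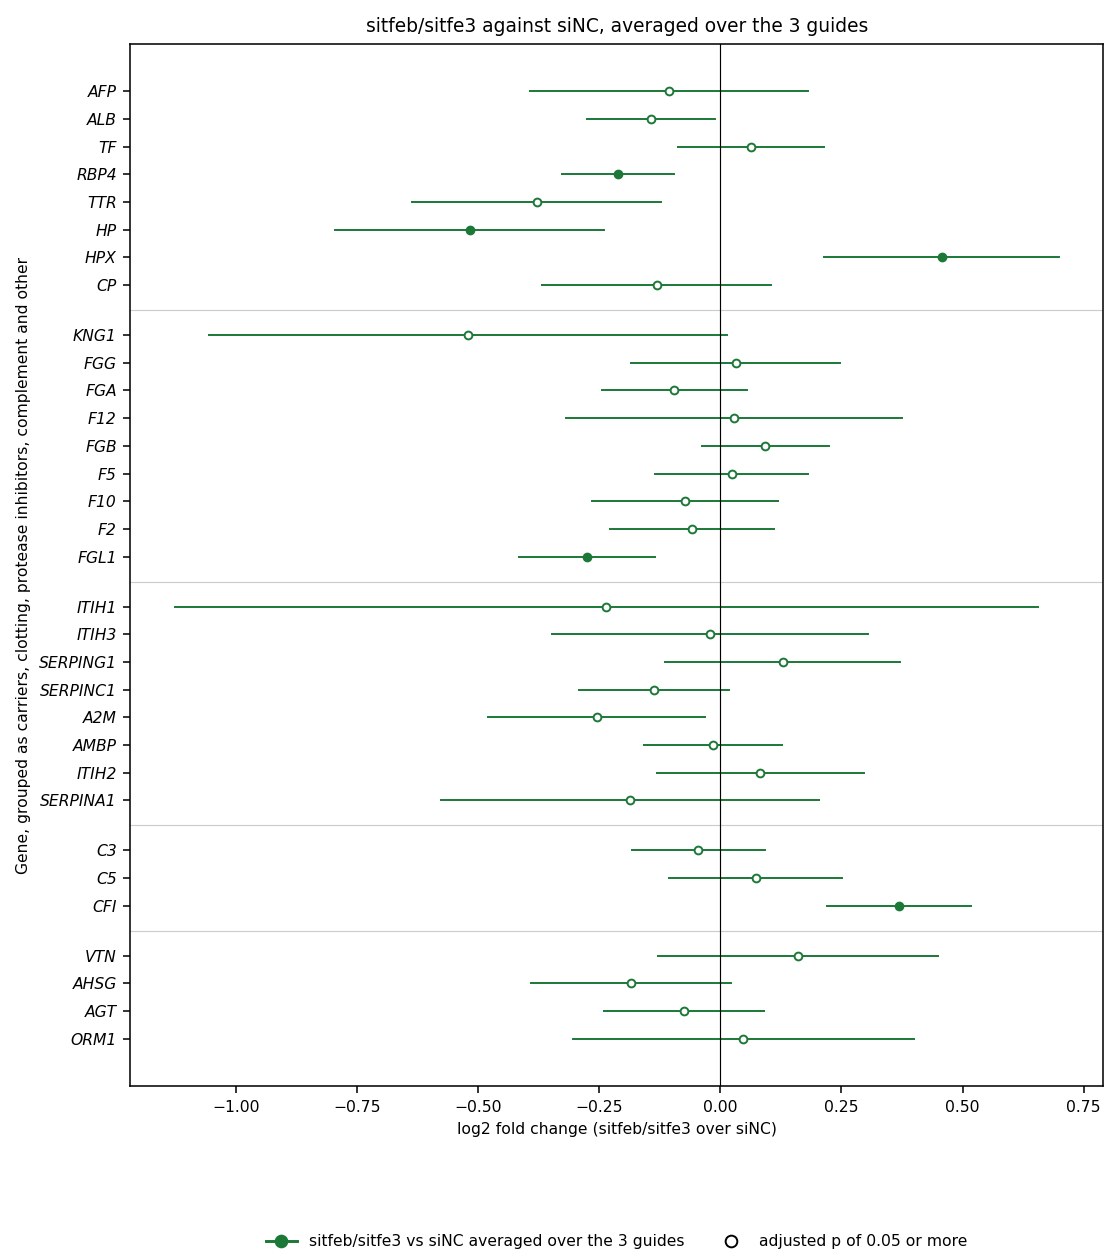
Log2 fold change of each of the 32 genes (points) under sitfeb/sitfe3 against siNC, averaged over the 3 guides, with its 95% interval (lines) and filled points where the FDR was below 0.05. CFI and HPX lie to the right of 0, HP, FGL1 and RBP4 to the left, and ALB and AFP are open.

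Further genes of the same pathways were read from lists. Of 71 other liver-secreted proteins, 43 were tested. Of these 3 rose and 11 fell with sgKeap1-1 under siNC, and 3 rose and 12 fell with sgKeap1-2, or 32.6% and 34.9% against 10.9% and 14.7% of all genes, with median log2 fold changes of -0.38 and -0.34. The proteases C1S and C1R, which start the classical complement pathway, rose by 2.09 (SE 0.27, FDR 4.73e-06) and 1.28 (SE 0.33, FDR 0.0117) with sgKeap1-1 and by 2.23 and 1.57 with sgKeap1-2. C6, a component of the membrane attack complex, rose by 2.23 (FDR 0.0416) and 2.39 (FDR 0.0202) under siNC. Under sitfeb/sitfe3 against siNC, C6 changed by 2.68 in sgCtrl cells (FDR 0.356), with all libraries higher. In sgKeap1-1 and sgKeap1-2 cells it changed by 0.18 and 1.05 (FDR 0.957 and 0.357). The C6 changes with the guides were thus lower under sitfeb/sitfe3 than under siNC, a difference that did not pass. MBL2, the mannose-binding lectin, fell by 1.46 and 1.44, CPN1, which clips anaphylatoxins, by 1.17 and 2.21, and SELENOP, the selenium carrier, by 1.00 and 1.02, each with an FDR of at most 0.00154. Among these complement genes C1S, C1R and C6 rose and MBL2 fell under siNC.

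Of 15 acute-phase signalling genes 1 rose and 1 fell with each guide under siNC, and this share of 13.3% is near the 10.9% and 14.7% of all genes. IL6R, the receptor subunit that binds interleukin-6, rose by 1.11 (SE 0.20, FDR 3.38e-04) and 1.34 (SE 0.20, FDR 2.03e-05), and NFKBIA, an inhibitor of NF-κB, fell by 0.86 and 0.84. Of 17 liver transcription factors tested, 1 rose and 5 fell with sgKeap1-1, and 1 rose and 4 fell with sgKeap1-2 (35.3% and 29.4%, against 10.9% and 14.7% of all genes). ZBTB20, a repressor of AFP, rose by 0.65 (SE 0.15, FDR 0.00565) and 0.71 (SE 0.15, FDR 0.00203). CREB3L3, a hepatic factor of the acute-phase and lipid response, fell by 1.30 and 1.02, GATA4 by 0.56 and 0.57, and FOXA3 by 0.49 and 0.55. Of 12 NRF2 targets tested, 10 rose with sgKeap1-1 and 11 with sgKeap1-2 (83.3% and 91.7%), led by AKR1B10 with changes of 3.62 and 4.29, followed by OSGIN1 (2.07 and 2.34) and TXNRD1 (2.04 and 2.43). Under sitfeb/sitfe3, averaged over the guides, 2 of the 43 other secreted proteins rose and 2 fell (9.3%, against 2.33% of all genes). C6 was among those that rose (1.30, SE 0.32, FDR 0.0228), and IL6R fell by 0.47 (SE 0.12, FDR 0.0245).

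Genes that mark other cell types in tissue were also read, and some moved with the guides. All libraries came from the HepG2 line, so these levels are transcripts of HepG2 cells and do not measure a mixture of cell types. The summed level of the cholangiocyte markers KRT19 and SOX9 (2 of 3 listed) was 589 to 594 CPM in sgCtrl cells under siNC, 833 to 990 CPM with sgKeap1-1 and 755 to 930 CPM with sgKeap1-2. The summed hepatocyte markers (4 of 5 listed) ranged from 8500 to 9300, from 6270 to 8640 and from 6160 to 6630 CPM in the same order. Most of each hepatocyte sum was APOB, at 4400 to 10200 CPM over all libraries. APOA1 was at 905 to 2420, HNF4A at 86.0 to 204 and FOXA2 at 134 to 206 CPM. Under sitfeb/sitfe3 the hepatocyte sums were 8010 to 9140, 6520 to 7510 and 5590 to 11300 CPM, so that with sgKeap1-2 they reached both below and above the sgCtrl range, and the cholangiocyte sums were 576 to 724, 903 to 1160 and 973 to 1230 CPM. Of 4 leukocyte markers, LYZ was present at 944 to 2810 CPM and CD68 at 0.943 to 4.78 CPM over all libraries, and of 3 stromal markers PDGFRB was present at 1.34 to 11.6 CPM. CYP2E1, KRT7, PTPRC, CD3E, COL1A2, DCN and the 3 endothelial markers had no row in the gene counts used here and were not analysed. The part of these shifts in the plasma protein results was not tested.

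The genes also share positions. Of the 32, 6 lie on chromosome 4 (AFP, ALB, CFI, FGA, FGB and FGG) and 6 on chromosome 3 (AHSG, CP, ITIH1, ITIH3, KNG1 and TF). ALB and AFP are adjacent and fell together, as did the 3 fibrinogen genes, in which FGA lies between FGB and FGG. ITIH1 and ITIH3 are adjacent as well, and AHSG and KNG1 are separated by 2 coding genes. In contrast, CFI on the same chromosome as ALB had changes of -0.11 and -0.07 under siNC that did not pass, and CP, on the same chromosome as TF, rose with sgKeap1-2. Among the 6 promoters with the HNF1 core, the genes ALB, AFP, FGA and FGB fell with both guides and CFI and F2 did not pass, so the core was found in genes that fell and in genes that were not called.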

How the data were processed

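HepG2 RNA was measured with QuantSeq 3′ libraries in 6 groups of 4. Per the labels' processing notes, the authors used FastQC 0.72, Cutadapt 1.16, STAR 2.7.5b, featureCounts 1.6.3 and limma 3.40.6. The notes name hg38 and the methods hg19, so no coordinate was taken from the reads. The deposited values are raw read counts per Entrez gene ID, not normalised by the authors, with 1 column per library and 0 columns unmatched. The table has 13446 rows, of which 1414 without an ID (1.35% to 2.57% of reads) were left out. Rows that shared an ID were summed and features with identical counts were merged, which left 11927.

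The tests were limma-voom, the study's method (limma 3.58.1, edgeR 4.0.16, R 4.3.3), after filterByExpr (11152 genes) and TMM scaling, with all 24 libraries in 1 fit of 6 group means and 13 two-sided contrasts. CPM values use TMM-scaled library sizes. The procedure was tested on simulated data. Results were recomputed under 37 alternatives, including edgeR's quasi-likelihood test and DESeq2 1.42.0. The 32 genes and the lists of related genes and motifs were chosen with earlier results of these data known, and an adjusted p over such a list alone is not given. Genes named outside the 32 are up to 3 per list and direction that passed with both guides under siNC, ranked by the smaller of the changes. The libraries of a number share a prefix of unstated meaning, so the number was tried as a block. Deviations from the group means correlated above 0.1 in 20 of 60 same-number pairs and in 17 of 180 other pairs. Every pair would have had to do so for the number to be taken as pairing the libraries. That rule is strict, so failing it does not settle whether the number marks a day or a batch. Promoters and gene neighbours are from RefSeq (GRCh38.p14).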

Additional observations from a re-analysis of the deposited data

Results flagged for a closer look

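In 13 of 192 sets of 4 libraries (a gene in a group), the highest or lowest library lay further from its nearest neighbour than Dixon's 95% critical value allows, as a share of the range of the set. Chance flags about 1 in 20 such sets. Replicate 1 of sgCtrl cells was the lowest library for TF under siNC (1890 CPM, with the next at 2560), for C3 under siNC (723 CPM) and for FGB under sitfeb/sitfe3 (915 CPM), and the highest for SERPINA1 under sitfeb/sitfe3 (121 CPM, with the next at 32.7). HP was high in sgCtrl replicate 4 under siNC (92.7 CPM, with the next at 40.2) and in sgKeap1-2 replicate 3 under siNC (63.9 CPM). In replicate 3 of sgKeap1-2 cells under sitfeb/sitfe3, TF (1710 CPM) and A2M (1560 CPM) were high.

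The remaining 5 were FGG in sgKeap1-2 replicate 2 under siNC (694 CPM, low), F12 in sgCtrl replicate 3 under sitfeb/sitfe3 (4.4 CPM, low), A2M in sgKeap1-1 replicate 4 under sitfeb/sitfe3 (1170 CPM, high), VTN in sgKeap1-2 replicate 4 under sitfeb/sitfe3 (4.17 CPM, low) and FGL1 in sgKeap1-1 replicate 3 under sitfeb/sitfe3 (278 CPM, high). The cause of these values was not tested.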

How the results depend on the processing

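No change of a called gene reversed under any of the 37 alternatives. Of the 61 calls, taken over the contrasts and alternatives, 1242 values stayed past the threshold and 112 did not, 102 of them in fits that left out 1 library. In the KEAP1 comparisons, calls were lost for AHSG, CP, FGA, FGB, FGG, ITIH1, ITIH3, KNG1 and SERPINC1, and in the averaged knockdown for FGL1, HP, HPX and RBP4. The number of genes called for sgKeap1-1 under siNC was 12, and became 20 with library quality weights, 7 when only the groups compared were fitted (fewer samples) and 22 without the 6 libraries numbered 1. Without those 6 libraries, a setting added after the data were seen, sgKeap1-1 under sitfeb/sitfe3 gave 23, the averaged knockdown 9, knockdown in sgKeap1-2 cells 1 and sgKeap1-2 against sgKeap1-1 under sitfeb/sitfe3 1. None of these alternative counts is set against the share of all genes called in the same fit, which is not given here. The cause of the differences was not tested.

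Leaving out 1 library gave 8 to 17 and 11 to 14 calls for sgKeap1-1 and sgKeap1-2 under siNC, 10 to 15 and 16 to 18 under sitfeb/sitfe3, 1 to 7 for the averaged knockdown, and 0 for the knockdown in single backgrounds, the comparison of the guides and the interactions. With the replicate block as a fixed term, 1 gene passed between the guides under sitfeb/sitfe3 against 0 without it, and the KEAP1 counts were 15, 16, 14 and 19. These counts too are given without the share of all genes called in the same fits. Same-number correlations ran from -0.163 to 0.43 (median 0.046, against -0.025 for different numbers), and 15 of 24 libraries correlated best with a library of their own number. At 0 to 32 reads per library ITIH1 had an SE of 0.72 with sgKeap1-1, and small changes in it were not detectable at this depth.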
